A study of Mus musculus with 6 samples.

Results

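The Runx family and its cofactors were examined as 7 of the 21951 protein-coding genes of the GENCODE M21 annotation: the transcription factor genes Runx1, Runx2 and Runx3, the gene of their shared DNA-binding partner, Cbfb, and the ETO family of corepressor genes, Runx1t1, Cbfa2t2 and Cbfa2t3. They were chosen by name, with earlier results of these data known. H3K4me3, the histone mark of active and poised promoters, had been measured by ChIP-seq in 2 mouse progenitor lines. Scid.adh.2C2 is a T-cell progenitor line, a subclone grown from a spontaneous pro-T thymic tumour of CB17-Prkdc<scid> mice, which cannot complete antigen receptor rearrangement. The other is an Abelson-transformed B-cell progenitor line, described by the study as a pre-B line and called the pre-B line here. Both were grown in culture, and the labels name no treatment, with 2 H3K4me3 ChIP libraries and 1 input library per line. The authors deposited 1 peak list per line, in which both ChIP libraries are combined, with 15513 peaks for Scid.adh.2C2 and 19604 for the pre-B line. The lists hold no value per library and no read counts, so that neither the depth nor the spread between replicates is known and no difference between the lines could be tested. Each lineage is represented by 1 tumour-derived or transformed line, and a difference of lineage cannot be told apart from a difference between these lines.

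Runx proteins bind DNA through the conserved Runt domain as heterodimers with Cbfb, which raises their affinity for DNA without touching the bases itself. Runx1 is required for the emergence of blood stem cells and for early T- and B-cell development, Runx3 acts in CD8 T cells and other cytotoxic lymphocytes, and Runx2 is the regulator of bone formation. Each of the 3 Runx genes is transcribed from a distal promoter, P1, and a proximal promoter, P2, and the resulting proteins differ in their first residues. The ETO proteins do not bind DNA and bring histone deacetylases to other factors, and Runx1t1 is the gene that the translocation of acute myeloid leukaemia fuses to RUNX1.

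The labels of the lines were checked against markers. Of 10 T-cell progenitor genes, 9 had a promoter peak in Scid.adh.2C2 against 4 in the pre-B line. Cd5, unmarked in Scid.adh.2C2, had a peak in the pre-B line (9.50-fold). Of 10 B-cell progenitor genes, 1 (Vpreb1) had a peak in Scid.adh.2C2 against 10 in the pre-B line. None of 6 myeloid markers was marked in either line. Of 4 erythroid markers, 2 were marked in Scid.adh.2C2 against 1 in the pre-B line, and of 4 stromal markers 0 and 1, the latter being Col1a1.

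Because the results turn on the choice between P1 and P2, the 250 bases before the most upstream annotated start are shown for 5 of the starts, read from the NCBI RefSeq genome of GRCm38. They are written in the direction of transcription, and capitals mark the RUNX motif, TGTGGT or TGCGGT, or on the other strand ACCACA or ACCGCA, none of which overlapped another.
Runx1 P1, chr16:92826150-92826399, minus strand: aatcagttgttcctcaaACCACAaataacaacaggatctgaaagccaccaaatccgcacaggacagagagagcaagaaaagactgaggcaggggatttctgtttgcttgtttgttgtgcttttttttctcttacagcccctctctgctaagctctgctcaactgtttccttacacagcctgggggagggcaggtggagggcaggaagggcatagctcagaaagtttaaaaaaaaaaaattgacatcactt
Runx1 P2, chr16:92697329-92697578, minus strand: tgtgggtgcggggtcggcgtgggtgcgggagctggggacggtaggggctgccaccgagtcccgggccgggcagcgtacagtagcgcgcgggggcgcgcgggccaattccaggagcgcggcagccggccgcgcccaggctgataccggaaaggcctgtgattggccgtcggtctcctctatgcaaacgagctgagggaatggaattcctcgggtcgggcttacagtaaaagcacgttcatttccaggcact
Runx2 P1, chr17:44814798-44815047, minus strand: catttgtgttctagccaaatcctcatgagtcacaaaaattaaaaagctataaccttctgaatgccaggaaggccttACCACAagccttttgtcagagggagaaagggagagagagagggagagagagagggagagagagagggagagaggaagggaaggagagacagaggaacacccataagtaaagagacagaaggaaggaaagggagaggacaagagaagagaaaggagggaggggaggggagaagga
Runx3 P1, chr4:135120402-135120651, plus strand: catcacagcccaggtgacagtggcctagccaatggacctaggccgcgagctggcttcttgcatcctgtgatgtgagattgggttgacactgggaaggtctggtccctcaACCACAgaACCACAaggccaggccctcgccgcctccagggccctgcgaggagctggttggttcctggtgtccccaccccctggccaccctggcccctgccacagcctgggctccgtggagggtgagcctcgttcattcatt
Runx3 P2, chr4:135152246-135152495, plus strand: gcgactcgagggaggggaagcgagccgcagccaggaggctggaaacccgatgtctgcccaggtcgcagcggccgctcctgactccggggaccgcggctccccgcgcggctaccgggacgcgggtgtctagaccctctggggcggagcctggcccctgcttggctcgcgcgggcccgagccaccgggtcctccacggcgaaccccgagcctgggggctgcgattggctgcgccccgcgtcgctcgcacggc
The P1 windows of Runx1 and Runx2 each held 1 motif, which began 233 and 174 bases before the start. That of Runx3 held 2, which began 141 and 133 bases before it. The P2 windows of Runx1 and Runx3 did not hold these letters. Of the same window before the first coding start region of 21585 protein-coding genes, 17.8% held the motif and 1.88% held it at least 2 times.

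The promoters also differed in CpG dinucleotides, which are dense in the promoters of broadly used genes. The P1 windows held 1 (Runx1), 0 (Runx2) and 7 (Runx3) CpGs, and the P2 windows held 27 (Runx1) and 33 (Runx3). The median before the first coding start region of all genes was 8. The GC content was 44.8%, 48.4% and 63.6% at the P1 windows and 67.2% and 76.0% at the P2 windows of Runx1 and Runx3. The median before the first coding start region of all genes was 54.0%. The P2 windows of Runx1 and Runx3 thus held more CpGs than the 3 P1 windows. Over all genes, a first start region whose window held 0 to 9 CpGs carried a peak in 21.1% of 11571 genes in Scid.adh.2C2 against 23.7% in the pre-B line. With 20 or more CpGs the shares were 70.9% and 73.6% of 4330 genes. Neither the medians nor these shares were computed for second start regions, to which P2 belongs.

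Promoters were scored as marked where at least 1 bp of a peak fell within 2500 bp of any annotated start of the gene, on either side. By this rule 5 of the 7 members were marked in Scid.adh.2C2 and 6 of 7 in the pre-B line, where 45.5% and 48.2% of all protein-coding genes were marked. Runx1, Runx3, Cbfb, Cbfa2t2 and Cbfa2t3 were marked in both lines, Runx2 in the pre-B line only, and Runx1t1 in neither. No member had a promoter peak in Scid.adh.2C2 alone. Among all protein-coding genes, 5.96% were marked in the pre-B line alone and 3.28% in Scid.adh.2C2 alone. The lists held 14 peaks at the promoters or over the bodies of the members in Scid.adh.2C2, 10 of them at promoters, and 23 in the pre-B line, 12 of them at promoters.

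The lines differed at 4 of 6 Runx starts and at 1 of the 3 genes as a whole. With equal numbers of peaks in both lists they differed at 2 starts, Runx1 P1 and Runx3 P2, and at 0 genes, and with a window of 5000 bp at 3 starts. Of the 6 start regions (P1 and P2 of Runx1, Runx2 and Runx3), 2 carried a peak in Scid.adh.2C2, P2 of Runx1 and P1 of Runx3, and all 6 did in the pre-B line. Among the 4288 protein-coding genes with at least 2 coding start regions, P1 was marked in 35.1% in Scid.adh.2C2 against 37.8% in the pre-B line. P2 was marked in 17.1% and 21.5%, and both in 10.3% and 14%. P1 was marked in the pre-B line only in 6.3% of these genes, as it was for Runx1 and Runx2, and P2 in 6.86%, as it was for Runx2 and Runx3. In 599 genes both starts were marked in the pre-B line, and the 3 Runx genes fell into 3 different classes of these by their state in Scid.adh.2C2. Runx3 was among the 133 genes (22.2%) in which P1 alone was marked there, Runx1 among the 44 (7.35%) in which P2 alone was, and Runx2 among the 66 (11.0%) in which neither was. In the largest class, with 356 genes (59.4%), both were marked in both lines. The compared genes were not selected by the distance between P1 and P2, and where these lie close together the same peak can mark both. The Runx starts lie far apart, by 128.8 kb (Runx1), 78.1 kb (Runx2) and 31.8 kb (Runx3). The effect of close starts on the shares and classes with both marked was not tested.

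**Figure D1:**
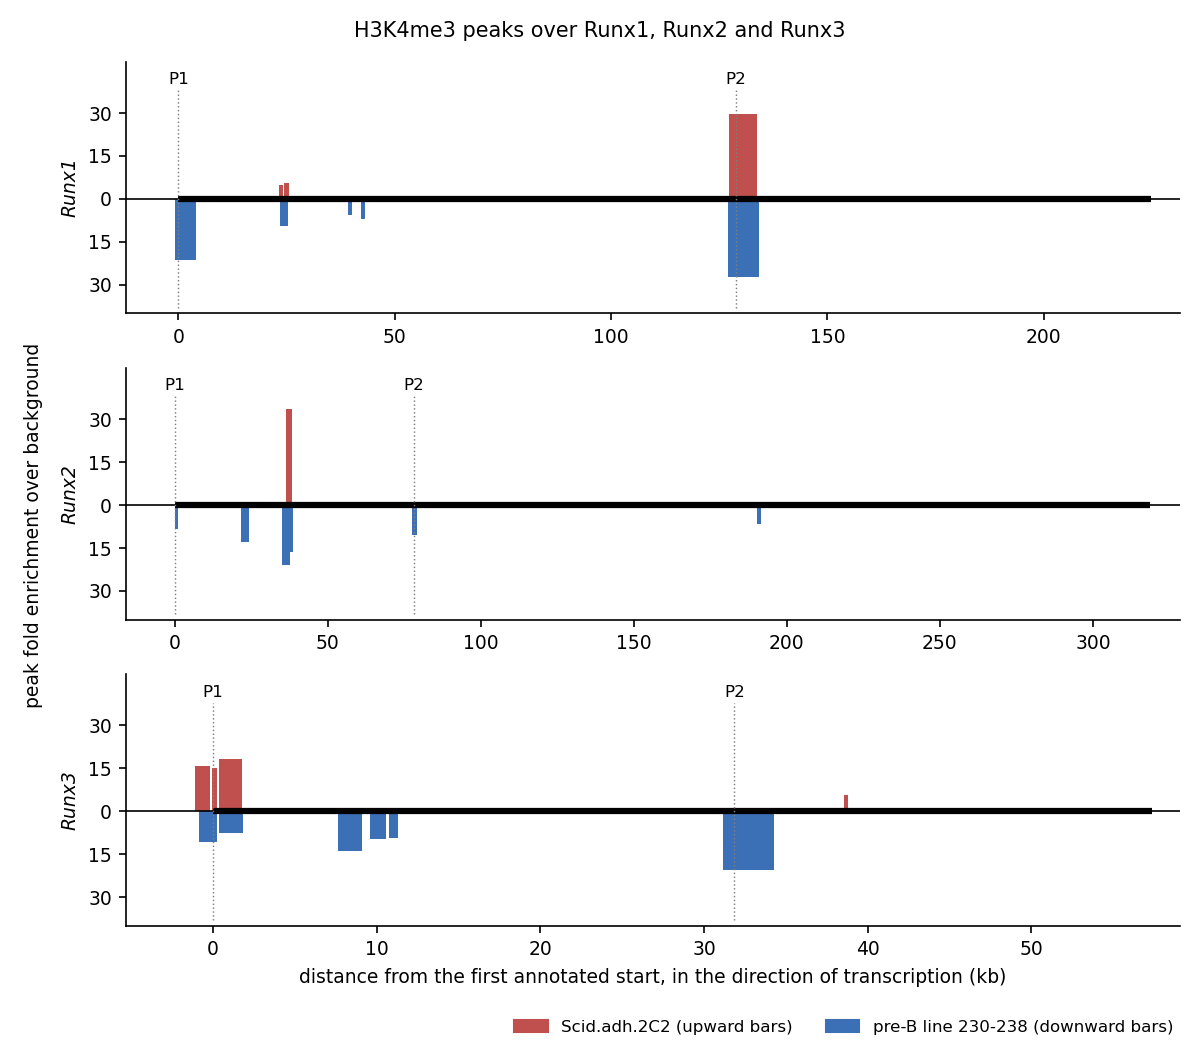
H3K4me3 peaks over Runx1, Runx2 and Runx3, with the distance from the first annotated start in kb on the x axis and the fold enrichment of each peak on the y axis, upward for Scid.adh.2C2 and downward for the pre-B line. The thick line is the gene body, dotted lines are P1 and P2, bars have the width of the peak (the narrowest are drawn slightly wider to be visible), and all 6 starts lie in a peak or beside one in the pre-B line but only Runx1 P2 and Runx3 P1 in Scid.adh.2C2.

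Runx1 (ENSMUSG00000022952, chr16:92601466-92826149, minus strand, GRCm38) was marked at P2 in both lines and at P1 in the pre-B line. Its starts lie 128.8 kb apart. At P2, Scid.adh.2C2 had a peak of 6484 bp (chr16:92692335-92698818) with a 29.6-fold enrichment over background, and the pre-B line a peak of 7209 bp (chr16:92691933-92699141) with a 27.2-fold enrichment. The summits of both peaks lay 6 bp apart, within an exon of the gene and 22 and 28 bp before the nearest annotated start of P2. That start is not the most upstream one of P2, which lies 128.821 kb from the first start of P1. Counted from that same P1 start, the summits lay at 130.632 and 130.626 kb, downstream of where P2 begins. The Scid.adh.2C2 peak lay wholly within the pre-B peak and covered 89.9% of it. Both were among the broadest of their lists, wider than all but a small share of peaks (percentiles of width 99.8 and 99.6).

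At Runx1 P1 the lines differed. In the pre-B line a peak of 4853 bp (chr16:92822081-92826933) covered the start, with a 21.2-fold enrichment, in the 73.4th percentile of fold and the 97.5th of width of its list. Its summit lay 1792 bp downstream of the first start and 1421 bp downstream of the nearest one. Its −log10 q, which rises with both the enrichment and the number of reads, was 204 (percentile 99.7), above the 138 of the P2 peak. In Scid.adh.2C2 the nearest peak to P1 lay 22.96 kb downstream, inside the gene.

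In the intron between P1 and P2, where Runx1 is known to hold a haematopoietic enhancer, both lines had weak peaks at the same place. Scid.adh.2C2 had peaks with summits 23.5 and 25.3 kb downstream of P1, with enrichments of 4.75-fold and 5.64-fold. The weaker one had an IDR score of 788, on a scale of reproducibility between the ChIP libraries that ends at 1000. A single peak of the pre-B line, with its summit 24.0 kb downstream and a 9.39-fold enrichment, overlapped both. Another pair of peaks stood in the pre-B line alone, at 39.7 and 42.8 kb, with 5.78-fold and 7.00-fold enrichments. Whether any of these lies on the enhancer was not examined.

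Runx2 (ENSMUSG00000039153, chr17:44495987-44814797, minus strand) was marked in the pre-B line alone, and weakly. There P1 carried a peak of 955 bp (chr17:44813721-44814675) with an 8.21-fold enrichment, in the 15.7th percentile of its list, and P2, 78.1 kb downstream, a peak of 1377 bp with a 10.4-fold enrichment, in the 28.3rd percentile. The summits lay 263 bp downstream of P1 and 4 bp upstream of P2. The P2 peak also lies in the window of Runx2os1, an antisense transcript, and had an IDR score of 991. With equal numbers of peaks in both lists, neither Runx2 peak of the pre-B line remained, and no member was then marked in 1 line only. In Scid.adh.2C2 the nearest peak lay 35.8 kb downstream of P1 and 39.8 kb upstream of P2.

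That peak (chr17:44776421-44778473) was strong, with a 33.5-fold enrichment in the 89.8th percentile of the Scid.adh.2C2 list, but it lies in the promoter window of Supt3, the gene of a coactivator complex subunit that starts inside Runx2 on the opposite strand. In the pre-B line a pair of peaks stood at the same place, with 16.3-fold and 20.95-fold enrichments. A further peak of the pre-B line, 2573 bp wide (chr17:44790380-44792952), stood 23.5 kb downstream of P1 in no annotated gene's window. Its 13.0-fold enrichment was above those of both Runx2 starts. A weak peak of 415 bp and 6.68-fold (IDR score 733) lay 190.8 kb downstream of P1.

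Runx3 (ENSMUSG00000070691, chr4:135120652-135177990, plus strand) was marked at P1 in both lines and at P2 in the pre-B line only. At P1, Scid.adh.2C2 had 3 short peaks of 904, 323 and 1453 bp with 16.0-fold, 15.3-fold and 18.3-fold enrichments, and the pre-B line had 2, of 1123 and 1479 bp, with 10.8-fold and 7.53-fold. The peaks covered nearly the same bases, 2680 bp in Scid.adh.2C2 and 2602 bp in the pre-B line, of which 2459 bp were shared (91.8% and 94.5% of each). A gap at 234 to 335 bp downstream of the start in Scid.adh.2C2 had its counterpart at 244 to 348 bp in the pre-B line, while a gap at 183 to 90 bp upstream was present in Scid.adh.2C2 alone. This start also lies in the window of Gm16225, a long noncoding RNA, so that peaks there cannot be assigned to Runx3 alone.

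At Runx3 P2, 31.8 kb downstream, the pre-B line had a peak of 3137 bp (chr4:135151814-135154950) with a 20.4-fold enrichment, in the 69.8th percentile of its list. It was the strongest peak of the gene. P2 of Runx3 had the most CpGs of the 5 windows shown above, and in Scid.adh.2C2 it had no peak, the nearest being 4.74 kb downstream, 288 bp wide and 5.60-fold (IDR score 646). With a window of 5000 bp this weak peak made P2 count as marked in Scid.adh.2C2. Between P1 and P2, the pre-B line had 3 peaks with summits 8.57, 10.3 and 11.0 kb downstream of P1, with 13.8-fold, 9.58-fold and 9.22-fold enrichments. Scid.adh.2C2 had none in that stretch.

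In the pre-B line, where both starts of each Runx gene carried a peak, P2 had the higher fold enrichment in all 3. The difference of P1 minus P2 on the log2 scale was -0.36 for Runx1, -0.33 for Runx2 and -0.92 for Runx3. By −log10 q the order of Runx1 turned (0.57 on the log2 scale, P1 above P2), while Runx2 and Runx3 kept P2 above P1. No such difference could be given for Scid.adh.2C2, where no Runx gene had peaks at both starts.

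**Figure D2:**
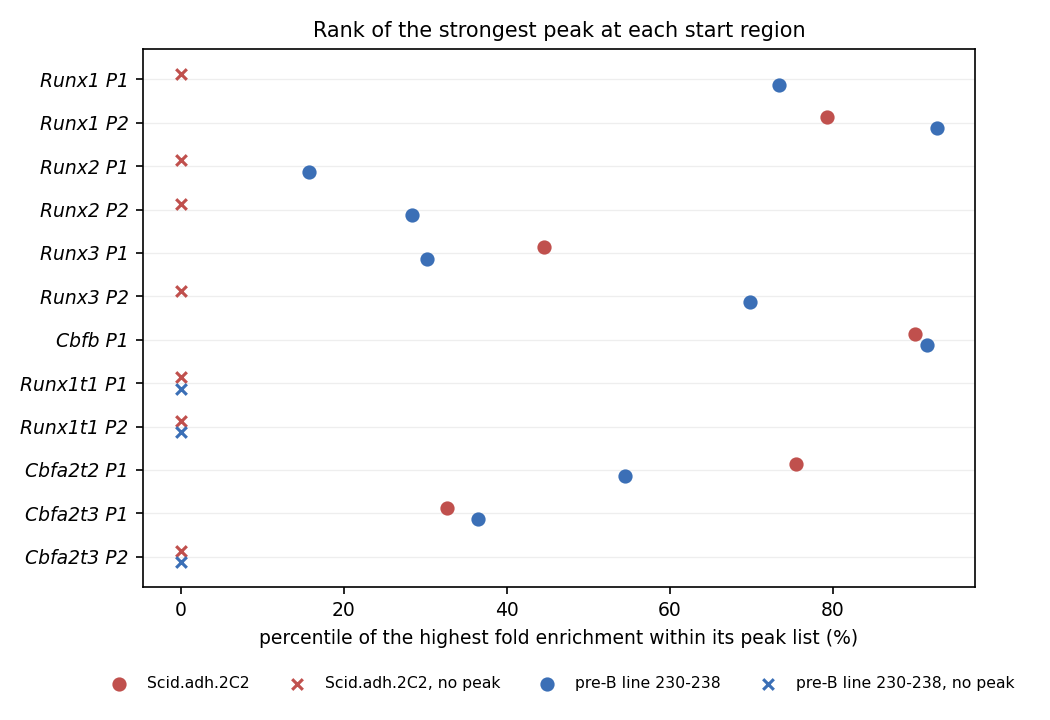
Percentile of the highest fold enrichment at each P1 and P2 start region within its own peak list (x axis, %), with filled points for marked regions and crosses at 0 for regions without a peak. Runx1 P2 and Cbfb stood in the upper part of both lists (79.2 to 92.8), Runx2 in the lower part of the pre-B list (15.7 and 28.3).

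Fold enrichments depend on the depth and background of each list, so that the folds given for both lines are each to be read within their own list. For the fold, only ranks are compared between lines, and a rank depends in turn on the length and make-up of its list. Widths and covered lengths are set side by side in bp. The Scid.adh.2C2 list held 15513 peaks with a median of 20.3-fold, and the pre-B list 19604 with a median of 15.4-fold. Among the genes marked in each line, the highest promoter fold of Runx1 stood at the 62.8th percentile in Scid.adh.2C2 and the 84.1st in the pre-B line. That of Runx3 stood at the 14.5th, from P1, and the 41.1st, from P2. Runx2 stood at the 3.79th percentile of the marked genes of the pre-B line. Runx1 stood above Runx3 in both lists, with no spread between replicates to set against the gap, and Runx2 had no rank in Scid.adh.2C2.

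Cbfb (ENSMUSG00000031885, chr8:105170674-105217989, plus strand), whose protein serves all 3 Runx factors, had 1 start region and 1 peak in each line. The peak was 2645 bp wide with a 33.6-fold enrichment in Scid.adh.2C2 and 3618 bp wide with a 26.7-fold enrichment in the pre-B line. Both ranked close to the 90th percentile of their lists (90.0 and 91.5). The Scid.adh.2C2 peak lay wholly within the pre-B peak and covered 73.1% of it, the summits were 41 bp apart, and most of the additional bases of the pre-B peak lay upstream of the start. The window also holds Gm22063, a small nuclear RNA gene. No further peak stood over the gene body in either line.

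The ETO family was marked at its first start or nowhere. Cbfa2t2 (MTGR1, ENSMUSG00000038533, chr2:154436481-154539356, plus strand) had 2 neighbouring peaks at its first start region in both lines. The downstream one covered the first start in Scid.adh.2C2 and began past it in the pre-B line. The downstream peak was 1540 bp wide and 28.4-fold in Scid.adh.2C2 and 1695 bp and 16.6-fold in the pre-B line, and the upstream peak was 459 bp and 16.1-fold and 341 bp and 8.09-fold. A gap without peak lay between them, 272 to 80 bp upstream of the first start in Scid.adh.2C2 and from 315 bp upstream to 24 bp downstream of it in the pre-B line. The other 4 start regions of the gene, 74.1 to 94.6 kb downstream, had no peak in either line.

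Cbfa2t3 (ETO2 or MTG16, ENSMUSG00000006362, chr8:122625141-122699109, minus strand), a corepressor of blood progenitors, had long but weak peaks at P1. In Scid.adh.2C2 its strongest was 2718 bp wide and 13.3-fold, with further peaks of 313 bp at 3.44-fold and of 2454 bp at 5.34-fold (IDR score 900) upstream. In the pre-B line it was 4074 bp wide and 12.2-fold, with another of 1410 bp at 8.00-fold upstream. The summed length was nearly equal, 5485 bp and 5484 bp, of which 4250 bp were shared. P1 shares its window with the antisense gene Gm10612, and P2, 20.4 kb downstream, had no peak in either line. A peak of 2565 bp and 8.46-fold (chr8:122664831-122667395) stood in an intron in the pre-B line only, 33.4 kb downstream of P1.

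Runx1t1 (ETO, ENSMUSG00000006586, chr4:13743436-13893649, plus strand) had no peak at any of its 5 start regions or over its 150.2 kb in either line. The nearest peak lay downstream of the gene, 636.4 kb from its last start region in Scid.adh.2C2 and 936.0 kb from it in the pre-B line. No peak there passed the authors' thresholds, and a weak mark under them cannot be seen in these lists.

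**Figure D3:**
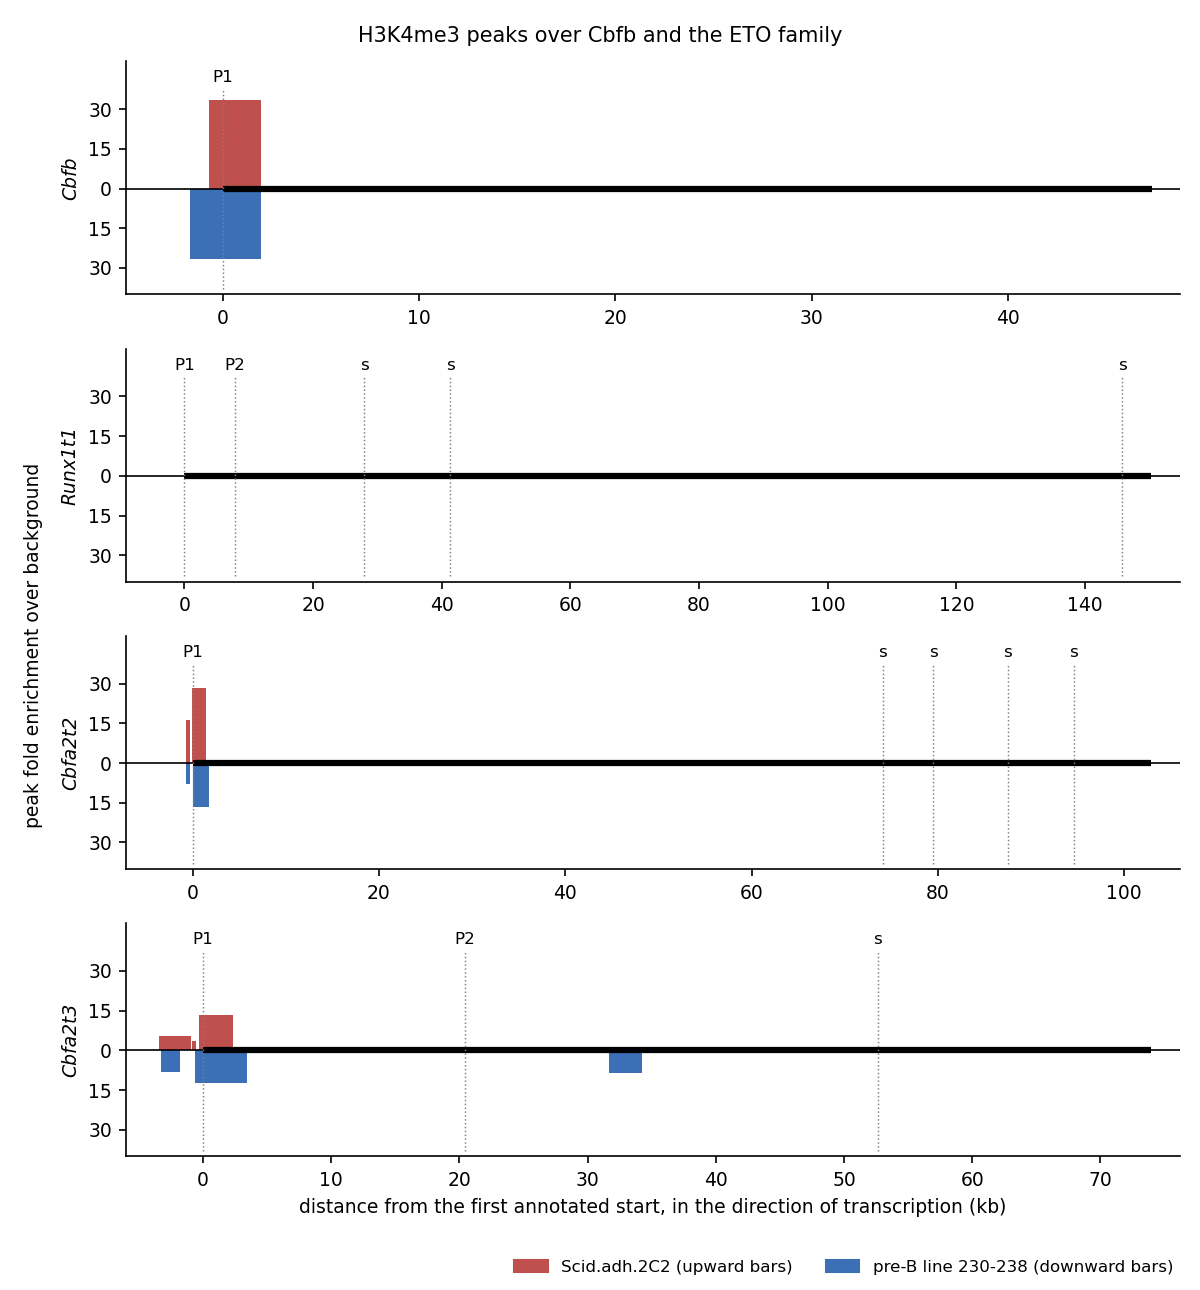
H3K4me3 peaks over Cbfb, Runx1t1, Cbfa2t2 and Cbfa2t3, drawn as for the Runx genes, with the distance from the first annotated start in kb on the x axis and the fold enrichment on the y axis, and with start regions other than P1 and P2 written as s. Peaks stood at the first start of Cbfb, Cbfa2t2 and Cbfa2t3 in both lines, none stood at Runx1t1, and 1 intronic peak of Cbfa2t3 was found in the pre-B line.

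By the length of the mark, Runx1 ranked near the top in both lines and Cbfa2t3 ranked far higher than by its enrichment. The bases covered in the promoter windows placed Runx1 at the 98.9th percentile of marked genes in Scid.adh.2C2 (5824 bp) and the 99.8th in the pre-B line (9803 bp). Cbfa2t3, whose fold was low (5.84th and 6.69th percentiles), stood at the 96.1st and 85.2nd percentiles by length. Runx3 stood at the 65.7th in Scid.adh.2C2 (2680 bp) and at the 97.0th in the pre-B line (5739 bp), where P2 added its peak. Cbfb (64.6th and 77.8th) and Cbfa2t2 (35.7th and 27.5th) were nearer the median of 2294 bp in Scid.adh.2C2 and 2638.5 bp in the pre-B line. Genes with more start regions have more bases in their windows, and the part of this in the ranks of Runx1 and Runx3 was not tested.

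**Figure D4:**
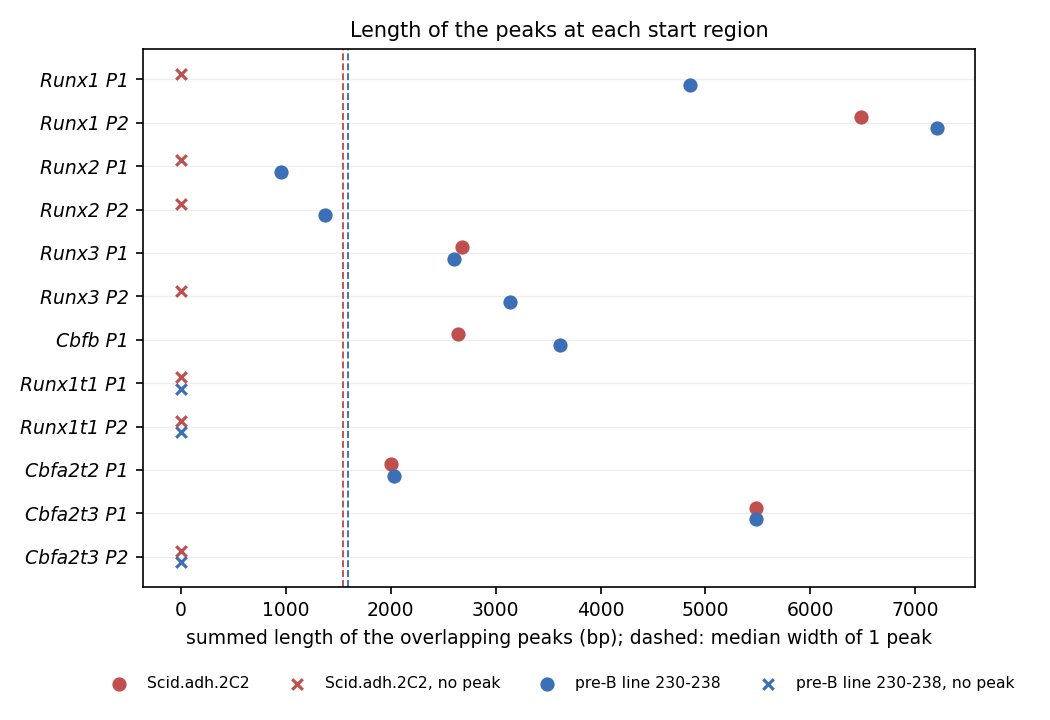
Summed length in bp of the peaks that overlap each P1 and P2 start region (x axis), with crosses at 0 for regions without a peak and dashed lines at the median width of 1 peak in each list. Runx1 P2 had the longest peaks in both lines (6484 and 7209 bp), and the Runx2 starts of the pre-B line lay under the median (955 and 1377 bp).

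Over the gene bodies, peaks covered more bases in the pre-B line for each of the 6 members that had any. The same held for 70.3% of the 3445 protein-coding genes at least as long as the shortest member that had a body peak in either line. The covered length was 8416 bp in Scid.adh.2C2 and 14470 bp in the pre-B line for Runx1, 2053 bp and 8417 bp for Runx2, and 1975 bp and 7915 bp for Runx3. It was 1948 bp and 1983 bp for Cbfb, 1461 bp and 1695 bp for Cbfa2t2, and 2382 bp and 5996 bp for Cbfa2t3. The gap was small for Cbfb and Cbfa2t2, which had no peak outside their promoters. The pre-B list is also the longer list. A body peak outside the promoter windows was present in 3 members in Scid.adh.2C2 (Runx1, Runx2 and Runx3) and in 4 in the pre-B line (with Cbfa2t3), and in 16.3% and 24.6% of the 5263 protein-coding genes at least as long as the shortest member. For Runx2 the only such peak of Scid.adh.2C2 was the one at Supt3.

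Across the annotated proteins, Runx1, Runx2 and Runx3 were close relatives of one another. In the longest annotated isoforms, of 465, 596 and 423 residues, identical residues made up 66.0% (Runx1 and Runx2), 64.5% (Runx1 and Runx3) and 66.0% (Runx2 and Runx3) of the shorter protein. In the ETO family these shares were 72.5% for Runx1t1 and Cbfa2t3, 63.3% for Runx1t1 and Cbfa2t2 and 60.1% for Cbfa2t2 and Cbfa2t3. Runx1t1, unmarked, and Cbfa2t3, marked in both lines, were the closest pair of that family.

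The genes most like each member were found by the smallest distance over 4 values, the ranks of the highest promoter fold and of the covered promoter length in each line, among 9256 other genes marked in both lines. For Runx1 these were Bbc3 and Dgkz, for Runx3 N4bp2l1 and Ttll5, and for Cbfb St6galnac4 and Ndufaf5. For Cbfa2t2 they were Yju2 and Tpd52l2, and for Cbfa2t3 Sla and Sf3b1, the least close of these pairs (distances of 0.32 and 0.37, beside 0.14 and 0.16 for Runx1). Bbc3, which encodes the apoptosis protein Puma, had promoter folds of 29.9 and 27.4 in Scid.adh.2C2 and the pre-B line and covered lengths of 5685 and 5495 bp. The covered lengths of Runx1 were 5824 and 9803 bp, so that in the pre-B line the 2 genes were alike in rank but not in length.

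Of the genes with which the Runx proteins work, the general coregulators were marked in both lines almost without exception. Of 24 coactivator and corepressor genes, which include histone acetyltransferases, histone deacetylases and the Groucho-related Tle genes, 22 were marked in both lines and 2 in the pre-B line only, Tle1 (18.7-fold) and Tle3 (29.0-fold). Of 20 partners of the ETO proteins and of Runx1 in blood complexes, 6 were marked in both lines and 7 in neither. Those in Scid.adh.2C2 only were the T-cell factor gene Gata3 (39.9-fold), the repressor gene Gfi1 (29.5-fold) and Ets1 (23.4-fold), and those in the pre-B line only were Lyl1 (27.7-fold), Lmo2 (22.0-fold), Tcf4 (21.9-fold) and Gfi1b (16.2-fold). By line, 22 of the 24 coregulators and 9 of the 20 partners were marked in Scid.adh.2C2, beside 45.5% of all protein-coding genes. In the pre-B line 24 and 10 were, beside 48.2%. The counts for 1 line only are to be read against 3.28% of all genes in Scid.adh.2C2 alone and 5.96% in the pre-B line alone.

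Textbook target genes of Runx factors in blood cells were marked in 10 of 20 in Scid.adh.2C2 and in 7 of 20 in the pre-B line. The shares of all protein-coding genes were 45.5% and 48.2%. Of the 20 target genes, 5 were marked in both lines. Among all protein-coding genes, 3.28% were marked in Scid.adh.2C2 alone and 5.96% in the pre-B line alone. Rag1 (16.5-fold) and Rag2 (8.20-fold) of antigen receptor recombination, Ptcra of the pre-T-cell receptor (16.6-fold), Bcl11b (33.2-fold) and Gfi1 had a peak in Scid.adh.2C2 alone, and Ebf1 (26.1-fold) and the cytokine gene Csf2 (7.14-fold) in the pre-B line only. Rag1 and Rag2 are used by both lineages. Ptcra and Bcl11b were also among the T-cell progenitor genes used to check the lines, and Ebf1 among the B-cell progenitor genes. Gfi1 was also in the list of partners. Of 12 textbook Runx2 targets in bone and cartilage, 1, the cytokine gene Tnfsf11, was marked in both lines, and 3 in the pre-B line only, Alpl (23.7-fold), Spp1 (18.2-fold) and Col1a1 (10.6-fold), where 5.96% of all genes were. Col1a1 is also the stromal marker that was marked in that line, and a relation of these peaks to Runx2 was not tested. The other 8 were marked in neither line.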

How the data were processed

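H3K4me3 ChIP-seq libraries of Scid.adh.2C2 and the Abelson-transformed pre-B line (2 ChIP and 1 input each) had been trimmed by the authors with Trim Galore 0.6.7, mapped to mm10 (GRCm38) with Bowtie2 2.4.4, and peaks called with MACS2 2.2.7.1 in narrow mode at q 0.05 against the input, keeping the optimal set at an irreproducible discovery rate (IDR) of 0.05. deepTools 1.9 is also named in the submitters' processing notes. The deposited lists give, per peak, the authors' IDR score, the fold enrichment as a ratio over background, the −log10 p-value and q-value and the summit, all used unchanged. They combine both ChIP libraries, so that no test was made.

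Starts came from GENCODE M21. Starts within 2500 bp of the next were joined into start regions. P1 and P2 were the first 2 regions that hold a coding transcript with a complete coding start. The known first residues of both isoforms were found in every such transcript but 1 of the 4 of Runx2 P1. All 14 annotated start codons of the members read ATG in the RefSeq genome of GRCm38. Proteins were translated from the coding exons and aligned globally (BLOSUM62). The promoter sequence of 1 start is not reported here. The members and gene lists were chosen with earlier results of these data known. Named genes were the members, genes whose window shares a member's peak, the 2 most alike genes per member and genes of the coregulator, partner and target lists marked in 1 line only. Other genes named are Cd5, Vpreb1 and Tnfsf11, each the single gene of a count. Overlaps were tested on simulated data (2000 of 2000 recovered). Python 3.11.15, pandas 2.3.3, numpy 2.4.6, pysam 0.24.0, Biopython 1.88 and matplotlib 3.10.9 were used. The alternatives were other windows, peaks of at least 10-fold or of IDR score 1000, equal list lengths, summits, coding transcripts only, and −log10 q or ranks in place of the fold.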

Additional observations from a re-analysis of the deposited data

How the results depend on the processing

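No paired analysis was possible because each line has 1 combined peak list, and for the same reason no replicate could be left out. The members marked in each line were the same under every alternative except equal numbers of peaks, under which Runx2 was lost in the pre-B line and the count of members marked in the pre-B line only was 0. Of the 6 Runx starts, the pre-B line kept 5 with peaks of at least 10-fold (without Runx2 P1) or of IDR score 1000 (without Runx2 P2) and 4 with equal numbers, and Scid.adh.2C2 had 2 throughout, but 3 with a window of 5000 bp. With peaks of at least 10-fold, the covered length over the body in the pre-B line was 4891 bp for Runx3 and 3431 bp for Cbfa2t3. By −log10 q in place of the fold, P1 minus P2 of Runx1 in the pre-B line was 0.57 (log2), the reverse of the fold, and the order of 3 members in Scid.adh.2C2 changed, with values of 134.5 for Cbfa2t2, 125.8 for Cbfb and 123.0 for Runx1. The cause was not tested. The remaining values kept their direction and stayed within 1.5 times of the counts or in the same order. Depth is unknown, so that a start without a peak is one at which none passed the authors' thresholds.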
